A study of Mus musculus with 12 samples.

Results

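The response of each gene to loss of miR-26 was set against its response to forced expression of miR-26a in cultured primary stromal vascular cells, the non-adipocyte fraction of mouse white adipose tissue. A gene was included when both deposited tables listed it under the same identifier and when, in each table, 3 or more of the 6 libraries had a value of 1 or more, and 12373 genes met this, of 16618 listed in both tables and 19429 listed in either. All mice were C57BL/6 and 6 weeks old. The 4 groups of 3 libraries were WT, wild-type cells, TKO, cells without the 3 miR-26 genes (miR-26a-1-/- and miR-26a-2-/- together with miR-26b-/-), CTL, untreated cells of genotype M2rtTA;eGFP.miR-26a, and Dox, cells of that same genotype given doxycycline for 4 days, at 1 mg/ml as the labels give the dose, which could not be checked here. M2rtTA is a doxycycline-dependent activator, so the transgene is switched on by the drug, and the promoter that drives M2rtTA is not given in the sources used here. All cultures were grown to confluency. A group that received doxycycline without the transgene was not analysed here, so the effect of the drug and the effect of miR-26a cannot be told apart. The labels do not say whether libraries of a group came from separate animals or cultures, and the p-values then measure the spread between these libraries, which may be technical.

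Throughout, the loss change is the TKO mean minus the WT mean, and the gain change is the Dox mean minus the CTL mean, both of log2(signal + 1), where signal is the deposited read count scaled to a common library size. Per gene, 2 quantities were tested with limma over all 12 libraries. The difference, loss change minus gain change, is far from 0 where the responses differ, and the sum of both changes is near 0 where they are equal in size and opposite in sign. The WT and TKO libraries held 54978109 to 83461531 reads and the CTL and Dox libraries 19301969 to 25785439, and the median within-group SD of log2(signal + 1) was 0.123 and 0.160. The tables were normalized apart, so levels are compared only within a table. At the edge of the filter, Gm43890 was just inside with a third-highest value of 1.00 in the WT and TKO table and Ppm1j just outside with 0.999, and in the CTL and Dox table Gm12669 was just inside with 1.01 and Il7 just outside with 0.990. Of the members, 12359 (99.9%) were found in the GENCODE vM21 annotation of GRCm38.

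The genes for miR-26 itself, for eGFP and for M2rtTA are not listed in these tables, so the labels of TKO and Dox could not be checked on the targeted RNAs. All 16 stromal progenitor markers were members, and their summed signal was 5666 to 6146 in WT, 4455 to 5019 in TKO, 4884 to 5447 in CTL and 4962 to 5287 in Dox. The 12 macrophage and leukocyte markers that were members summed to 43.8 to 77.0 in WT, 58.4 to 333 in TKO, 43.8 to 189 in CTL and 33.8 to 164 in Dox, and none passed either test (limma, adjusted p under 0.05) or had a gain change at an unadjusted p under 0.05. Of the stromal markers Icam1 passed the difference above 0 and Thy1 below 0, and of 10 smooth muscle and pericyte markers Tagln passed both tests. Of the 8 endothelial markers Flt1 passed both tests with lower signal in TKO, and of the epithelial, mesothelial, Schwann cell and skeletal muscle markers 0 passed. Each of these 4 calls was lost in some alternatives: Tagln and Flt1 passed neither test with a trend on transcript length and GC content removed (adjusted p of the difference and the sum 0.0830 and 0.0616 for Tagln, 0.0523 and 0.0889 for Flt1), and the difference of Thy1 did not pass with edgeR (0.0533). Of the 12 fits that left out 1 library, the difference was lost in 8 for Thy1, 5 for Icam1 and 5 for Tagln. The sum was lost in 1 such fit for Tagln and in 2 for Flt1. The part of other cell types in the results below was not tested, and in such bulk samples fewer cells of a type and less RNA per cell cannot be told apart.

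A microRNA is a short RNA that guides Argonaute proteins to messenger RNAs, mostly through pairing between its seed, bases 2 to 8 from the 5′ end, and a site in the 3′ UTR, and the usual outcome is less messenger RNA and less protein. The miR-26 family is made from 3 genes that lie in introns of the phosphatase genes Ctdspl, Ctdsp2 and Ctdsp1. Its part in the differentiation of fat cell progenitors was not tested here. Fbxl19, an F-box protein that binds CpG islands and serves as the substrate receptor of a ubiquitin ligase, is a known miR-26 target in this setting. For a direct target, pairing predicts a higher level after loss and a lower level after gain.

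The mature sequences, from RefSeq on GRCm38.p6, show that the products of the 3 genes share 1 seed, printed in capitals. The miR-26a-5p sequence is encoded on the plus strand at chr9:119031811-119031832 (Mir26a-1) and chr10:126995543-126995564 (Mir26a-2), and miR-26b-5p on the plus strand at chr1:74394324-74394344.
miR-26a-5p: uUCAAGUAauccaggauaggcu
miR-26b-5p: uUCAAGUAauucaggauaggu

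A full site was taken as the 8 bases TACTTGAA in the 3′ UTR, the complement of the seed followed by an A. A 7-base site was TACTTGA alone. Genes that held only ACTTGAA, the full site without its first base, were counted apart and are not among the genes with no site. Sites were searched in the sense strand of the GENCODE vM21 3′ UTRs. The sites below are shown because they lie in genes on which the results turn: 6 genes with opposite responses, then 2 genes lowered by gain with little change after loss, then 1 gene lower in both. Capitals mark the 8 bases of the full site, of which the first 7 pair with the seed. The coordinates in the text after the list are those of the capitals on GRCm38.
Fbxl19, upstream site: ctctacacaaTACTTGAAcattcatctg
Fbxl19, downstream site: actgaagtgtTACTTGAAccgggggaat
Txndc15: tgctttttaaTACTTGAAcataatgaat
Stradb: gacaaatctaTACTTGAAaatacagttg
Nus1: tttttaaataTACTTGAAataaaatgat
Ttpal: acaggtaaaaTACTTGAAacttctcagt
Snn, upstream site: gcgctttcctTACTTGAAtgttttagct
Snn, downstream site: ctgtggaggcTACTTGAAgtctgaaacc
Zdhhc20, upstream site: tggaatgaaaTACTTGAAgtgtaacaga
Zdhhc20, downstream site: atatggtcttTACTTGAAttttaattct
Adam17: gttacactaaTACTTGAAtatatacctt
Bak1: aacctatgatTACTTGAAccccaccttc

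All of these sites are in the last part of the transcript, within the 3′ UTR. The Fbxl19 sites lie close together in exon 11 at chr7:127768710-127768717 and chr7:127768739-127768746 (plus strand), in a 3′ UTR of 1546 bases. The Txndc15 site is in exon 5 at chr13:55726083-55726090 (plus strand), the Stradb site in exon 12 at chr1:58994525-58994532 (plus strand), the Nus1 site in exon 5 at chr10:52437983-52437990 (plus strand) and the Ttpal site in exon 5 at chr2:163618730-163618737 (plus strand). The Snn sites are in exon 2 at chr16:11072841-11072848 and chr16:11073425-11073432 (plus strand). The Zdhhc20 sites are in exon 13 at chr14:57836573-57836580 and chr14:57833529-57833536 (minus strand), the Adam17 site in exon 20 at chr12:21323978-21323985 (minus strand) and the Bak1 site in exon 6 at chr17:27019985-27019992 (minus strand).

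Across genes, the loss and gain changes ran in no common direction. Their correlation over the 12373 genes was -0.005 (Pearson) and 0.017 (Spearman), given as a description, since genes share libraries and are not independent. The SD over genes was 0.485 for the loss change and 0.192 for the gain change, and the loss change was the larger in size in 77.9% of genes. At an adjusted p under 0.05, the loss change was called in 5273 genes (42.6% of those tested) and the gain change in 46 (0.372%), of which 45 (0.364%) were lower in Dox and 1 (0.00808%) higher. At an unadjusted p under 0.05 the gain change passed in 1131 genes (9.14%), 583 lower (4.71%) and 548 higher (4.43%), and the loss change in 6243 (50.5%). The count of 46 rests on single libraries: it was 2 without Dox replicate 3, 13 without CTL replicate 3 or without Dox replicate 1, 77 without Dox replicate 2, and it was under 20 without CTL replicate 1 or any 1 of the WT libraries, which enter through the shared spread. It was 20 without CTL replicate 2 and 27 without TKO replicate 1. With the replicate number as a block in the CTL and Dox table it was 104. This limit holds for every gain change given below as past adjustment, and at most 2 of those passed without Dox replicate 3.

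**Figure D1:**
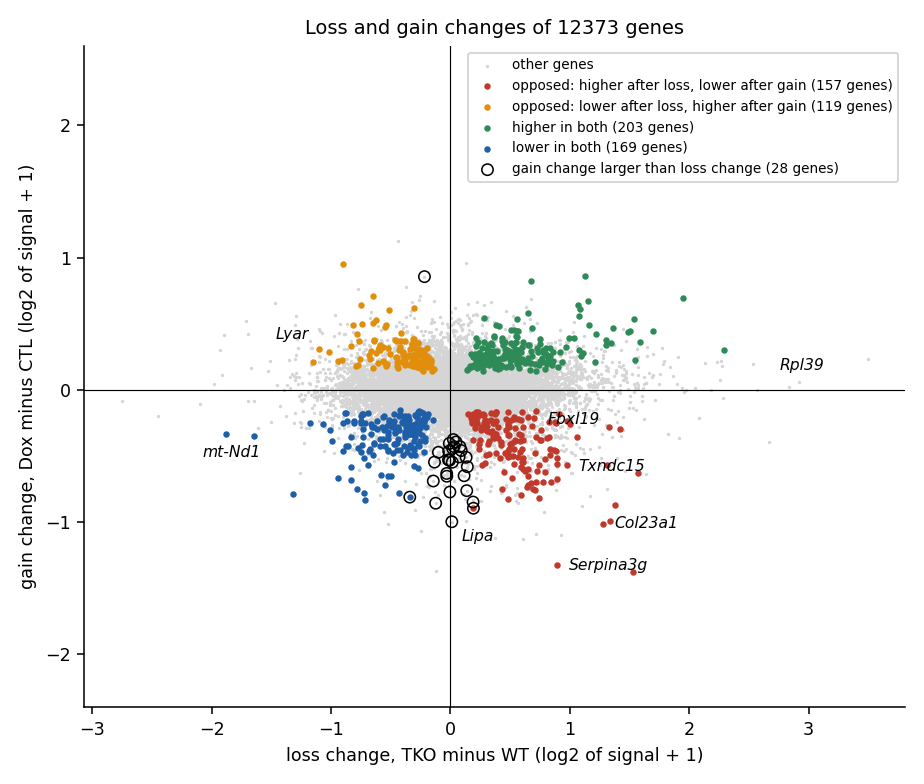
Loss change (TKO minus WT, x axis) against gain change (Dox minus CTL, y axis) of log2(signal + 1) for the 12373 genes, 1 point per gene, with the classes in colour. The cloud is wide along the x axis (SD 0.485) and narrow along the y axis (SD 0.192), without a slope.

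The difference passed an adjusted p of 0.05 in 3335 genes (27%), with 1752 above 0 and 1583 below, and the sum in 3504 genes (28.3%), with 1896 above 0 and 1608 below. At an unadjusted p under 0.05 they passed in 4893 (39.5%) and 4974 (40.2%). These splits move with the scaling: with libraries scaled by their totals, which shifts the median loss change by 0.115, the difference passed with 2485 above 0 and 961 below and the sum with 2435 and 1066. Passing both tests orders the 2 changes by size. By this, 2196 genes (17.7%) had the larger loss change and 28 (0.226%) the larger gain change. A further 1111 (8.98%) passed the difference alone, 1280 (10.3%) the sum alone, and 7758 (62.7%) neither.

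Opposed genes were those that passed the difference and had both changes at an unadjusted p under 0.05 with opposite signs. There were 157 (1.27%) higher after loss and lower after gain and 119 (0.962%) the other way, 276 in all (2.23%). Same-direction genes, which passed the sum and had both changes at an unadjusted p under 0.05 with 1 sign, numbered 203 higher in both (1.64%) and 169 lower in both (1.37%), 372 in all (3.01%). The 2 unadjusted p-values and the signs alone gave the same 157, 119, 203 and 169 genes. Passing the difference or the sum thus removed no gene, and the classes rest on unadjusted p-values. Of the 583 genes lower after gain at an unadjusted p under 0.05, 157 were higher and 169 lower after loss. Of the 548 higher after gain, 203 were higher and 119 lower after loss. The loss change passed that threshold in 50.5% of genes, so some genes meet both conditions without any link between the changes. Whether the counts exceed that was not tested. With the replicate block in the CTL and Dox table the 4 class counts were 225, 211, 309 and 260. Without Dox replicate 2 the opposed counts were 258 and 232. The count of 119 fell to 71 without WT replicate 2 and to 79 without Dox replicate 3, and the count of 203 to 125 without CTL replicate 2. In all 25 alternatives 53 of the 157 genes, 15 of the 119, 39 of the 203 and 47 of the 169 kept their class. Judged without a model, the 3 TKO libraries lay apart from the 3 of WT in 7294 genes (59%), Dox from CTL in 1518 (12.3%) and both in 920 (7.44%). In 189 of these (1.53%) TKO was above WT and Dox below CTL, in 208 (1.68%) it was the other way, in 300 (2.42%) both were higher and in 223 (1.8%) both were lower. With 3 libraries per group, groups can lie apart through the order of the libraries alone. These shares were not compared with that rate and do not show joint responses.

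Genes with a full miR-26 site had lower gain changes than genes with no site. A 3′ UTR was annotated for 11696 genes, of which 595 (5.09%) held a full site and 762 (6.52%) a 7-base site only. A further 1199 held only ACTTGAA, with a median gain change of -0.030 and 9.4% lower in Dox at an unadjusted p under 0.05. The 9140 genes with no site held none of these. The median gain change was -0.128 for genes with a full site and 0.024 for genes with no site, and 73.1% of the full-site genes were below 0. At an unadjusted p under 0.05, 24.5% of the full-site genes were lower in Dox, against 2.5% of the genes with no site, and without Dox replicate 2 these shares were 24.5% and 5.2%. The 33 genes with more than 1 full site had a median gain change of -0.204, and those with a 7-base site only -0.027. The latter median was -0.002 without Dox replicate 2 and -0.058 without Dox replicate 3. With the genes ranked by gain change and split into deciles, the share with a full site went from 17.7% in the lowest decile to 1.56% in the highest.

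After loss the same genes had no shared direction that held across scalings. Their median loss change was -0.091 as deposited, 0.030 with libraries scaled by their totals, and 0.074 after removal of the trend on transcript length and GC content. The value as deposited was -0.037 without TKO replicate 2 and -0.128 without TKO replicate 3. The median gain change stayed below 0 in these fits, at -0.128, -0.142 and -0.113. Full-site genes were longer (median 5007 bases against 2953 for genes with no site) and poorer in GC (46.1% against 51.4%). Length and GC content accounted for 16.96% of the variance of the loss change and 1.664% of that of the gain change.

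The library values show the same. The quantity here is the median deviation from the mean of the table over full-site genes minus that over genes with no site. As deposited, the CTL libraries were at 0.097, 0.089 and 0.052, against -0.036, -0.147 and -0.065 for Dox. The WT libraries were at 0.104, 0.062 and 0.034, against -0.021, -0.164 and 0.005 for TKO. Dox lay below CTL and TKO below WT, without overlap in either pair. With the length and GC trend removed, CTL was at 0.084, 0.069 and 0.079 and Dox at -0.061, -0.054 and -0.121. WT was then at -0.033, -0.031 and -0.037 and TKO at 0.034, 0.031 and 0.041. With that trend removed TKO lay above WT in all 3 libraries, so the order of WT and TKO turned while that of CTL and Dox did not.

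**Figure D2:**
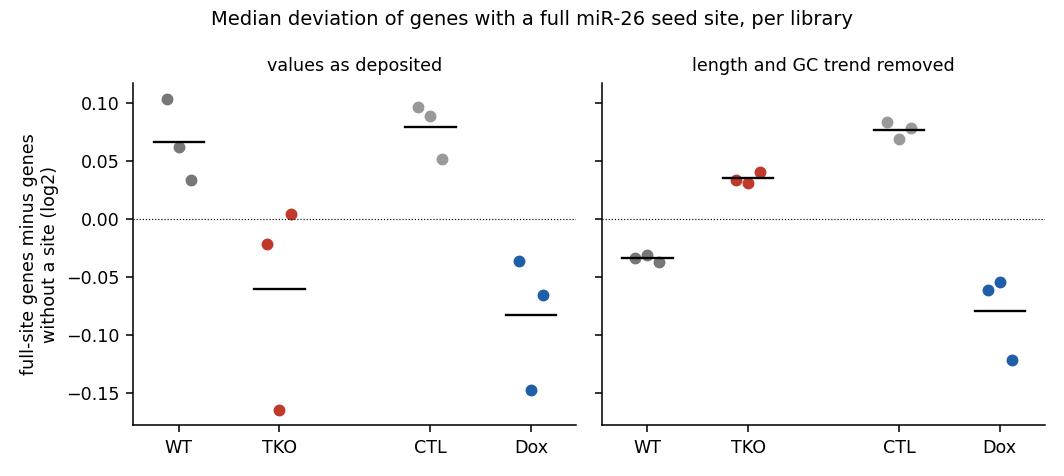
Median deviation of log2(signal + 1) of full-site genes minus that of genes with no site, 1 point per library and a line at the mean of each group, as deposited (left) and with the trend on length and GC content removed (right). Dox lies below CTL in both panels, while TKO lies below WT on the left (lowest -0.164) and above it on the right (0.031 to 0.041).

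The share of genes with a full site differed with the gain change far more than with the loss change. Of the 564 genes with a 3′ UTR that were lower in Dox at an unadjusted p under 0.05, 146 (25.9%) held a full site. Split by the loss change, these were 40 of 153 (26.1%) for genes higher after loss, 68 of 250 (27.2%) for genes called neither way and 38 of 161 (23.6%) for genes lower after loss. Higher after gain, the share was 2.07% (11 of 531 genes). With the length and GC trend removed, the 3 shares were 28.0%, 23.0% and 17.6%, highest for the genes higher after loss. When each library was left out in turn, the share among genes higher after loss and lower after gain ran from 16.6% (without Dox replicate 2, 42 of 253 genes) to 31.4%, and among genes lower in both from 18.4% to 25.2%. Among the 28 genes with the larger gain change, 14 (50%) held a full site and 20 (71.4%) a full or 7-base site. Among those with the larger loss change it was 68 of 2111 (3.22%). These shares are descriptions, and no enrichment test was made.

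**Figure D3:**
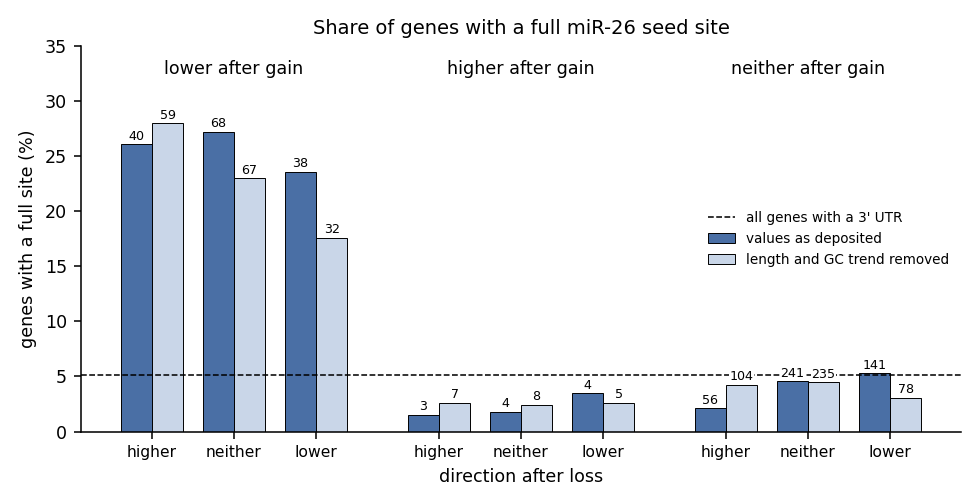
Percent of genes with a full miR-26 site, by the direction of the gain change and of the loss change (each at an unadjusted p under 0.05), as deposited and with the trend on length and GC content removed. Bars start at 0, numbers over the bars are genes with a full site, and the dashed line is the 5.09% over all genes with a 3′ UTR. The bars for genes lower in Dox stand at 17.6% to 28.0%.

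Fbxl19 (ENSMUSG00000030811.14) was among the opposed genes. Its signal was 16.95, 19.2 and 22.1 in WT and 30.01, 34.1 and 33.2 in TKO. In the other table it was 27.2, 26.4 and 27.02 without and 20.6, 22.2 and 19.6 with doxycycline. No TKO library came down to the WT range, and no Dox library came up to that of CTL. The loss change was 0.72 ± 0.095 (SE) and the gain change -0.36 ± 0.095, and the difference was 1.08 ± 0.14 (adjusted p 4.46e-04, limma). The sum was 0.36 ± 0.14 (adjusted p 0.0690), so neither response was shown to be the larger. The gain change alone had an unadjusted p of 0.00328 and did not pass after adjustment. Fbxl19 kept its class in all 25 alternatives.

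Txndc15, a membrane protein with a thioredoxin domain, had the largest difference of the full-site genes that were higher after loss and lower after gain. Signal was 30.6, 29.1 and 30.6 in WT, 66.1, 62.4 and 52.5 in TKO, 40, 41.7 and 45.7 in CTL and 26.8, 28.4 and 29.6 in Dox, with no overlap in either comparison. The loss change was 0.97 ± 0.090, the gain change -0.57 ± 0.090 (adjusted p 0.0271) and the difference 1.54 ± 0.13 (adjusted p 7.22e-05). Its sum of 0.404 also passed (adjusted p 0.0357), so the loss change was the larger. Stradb, a pseudokinase that activates the kinase LKB1, had signal of 11.6, 12.2 and 11.8 in WT, 21.5, 23.7 and 21.01 in TKO, 10.9, 13.3 and 11.3 in CTL and 7.35, 6.57 and 6.72 in Dox. TKO was far above WT and Dox far below CTL in every library. The changes were 0.84 ± 0.090 and -0.698 ± 0.090 (adjusted p of the gain change 0.0106), and the difference was 1.54 ± 0.13 (adjusted p 7.22e-05).

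In 2 genes the changes were nearly equal in size. Nus1, a subunit of the enzyme that makes dolichol, the lipid carrier of protein glycosylation, had signal of 101, 98.1 and 91.9 in WT, 160.2, 142 and 142 in TKO, 95.8, 95.96 and 108 in CTL and 65.8, 66.3 and 64.4 in Dox. Neither pair of groups overlapped, and Dox replicates were close together. The loss change of Nus1 was 0.604 ± 0.073, the gain change -0.599 ± 0.073 and the sum 0.005 ± 0.103. The difference was 1.202 (adjusted p 8.48e-05). Ttpal, a relative of the vitamin E transfer protein, had signal of 42.9, 41.1 and 44.4 in WT, 65.96, 63.2 and 65.2 in TKO, 46.6, 52.7 and 50.1 in CTL and 32.7, 35.4 and 30.8 in Dox, again without overlap. Its changes were 0.59 ± 0.072 and -0.58 ± 0.072, with a sum of 0.006 ± 0.101 and a difference of 1.17 (adjusted p 8.51e-05). Both gain changes passed adjustment (adjusted p 0.00845 in each), but without Dox replicate 3 only 2 genes in all had such a gain change.

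Snn, which encodes stannin, a small membrane protein tied to the toxicity of organic tin, holds 2 full sites. Its signal was 38.97, 37.7 and 38.4 in WT and 69.9, 53.9 and 59.9 in TKO. In the other table it was 38.8, 56.9 and 61.6 without and 25.7, 37.3 and 35.5 with doxycycline. The Dox libraries lay below all CTL libraries, but CTL replicate 1 was only a little above Dox replicate 2, and replicate 1 was the lowest of its group in both. The changes were 0.65 ± 0.18 and -0.65 ± 0.18 and the difference 1.31 ± 0.25 (adjusted p 0.00392). The adjusted p of the gain change was 0.226, and 0.0216 with the replicate block.

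**Figure D4:**
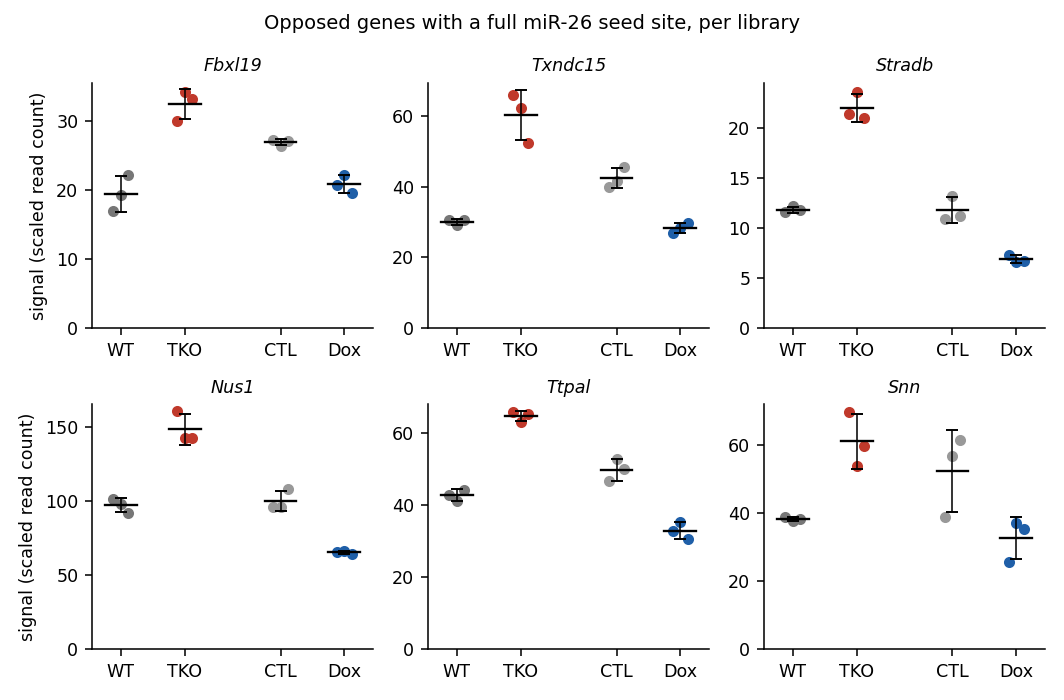
Signal (read count scaled to a common library size) in the 12 libraries for Fbxl19, Txndc15, Stradb, Nus1, Ttpal and Snn, 1 point per library, with the bar at the group mean and the error bar of 1 SD. In each gene the 3 TKO points lie above the 3 WT points and the 3 Dox points below the 3 CTL points, as for Stradb (WT 11.6 to 12.2, TKO 21.0 to 23.7, CTL 10.9 to 13.3, Dox 6.57 to 7.35).

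Some of the other full-site genes with this pattern overlap other genes. Trappc4, a subunit of a vesicle tethering complex, had changes of 0.89 and -0.56 (adjusted p of the difference 6.80e-05), but 37.9% of its exon bases overlap other genes. Capn10, a calcium-dependent protease, had changes of 1.06 and -0.36 with 22% overlap, and its class was lost without Dox replicate 3. Rnf149, a ubiquitin ligase, had changes of 0.67 and -0.701 with 28.4% overlap. Reads of such overlaps cannot be assigned from these tables. Slc25a16, a mitochondrial carrier, had signal of 23.2, 22.5 and 23.01 in WT, 35.1, 29.7 and 29.3 in TKO, 18.2, 20.1 and 23.5 in CTL and 11.3, 11.9 and 12.2 in Dox. For Slc25a16 the gain change of -0.75 ± 0.10 (adjusted p 0.0119) was larger than the loss change of 0.43 ± 0.10 in value, and the sum did not pass (adjusted p 0.115). Slc45a4, a solute carrier, Rhou, an atypical small GTPase, and Vbp1, a prefoldin subunit, had differences of 1.23, 1.14 and 1.14 (adjusted p 0.00117, 0.0108 and 2.23e-04). The class of Rhou was lost without CTL replicate 2, Dox replicate 1 or Dox replicate 3.

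Most opposed genes of this direction held no full site, which was present in 40 of the 153 with a 3′ UTR. Col23a1, a transmembrane collagen, had signal of 8.31, 6.28 and 7.43 in WT, 15.5, 24.8 and 18.2 in TKO, 7.42, 7.05 and 6.603 in CTL and 3.32, 5.66 and 1.17 in Dox. Its spread within Dox was wide, and the difference was 2.29 ± 0.46 (adjusted p 0.00467). Tmem173, which encodes the DNA sensing adaptor STING, had signal of 55.02, 56.7 and 57.6 in WT, 78.2, 95.2 and 83.5 in TKO, 74.5, 63.6 and 62.3 in CTL and 41.97, 42.5 and 30.7 in Dox. Its changes were 0.59 ± 0.13 and -0.79 ± 0.13 (adjusted p of the gain change 0.0271), and no library of Tmem173 crossed between groups. Dctn3, a dynactin subunit, had signal of 12.2, 12.7 and 13.4 in WT, 33.4, 36.7 and 30.8 in TKO, 29.95, 27.9 and 32.02 in CTL and 24.3, 27.3 and 21.98 in Dox. For Dctn3 the loss change of 1.33 was far larger than the gain change of -0.28, and the class was lost without CTL replicate 3 or Dox replicate 3.

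Atp6v0e and Atp6v1a, which encode subunits of the proton pump that acidifies lysosomes, were also opposed, and the other subunits were not examined as a group. Atp6v0e, of the membrane part of the pump, had changes of 0.795 after loss and -0.62 after gain (difference 1.42 ± 0.16, adjusted p 2.67e-04). Atp6v1a, the catalytic subunit, had signal of 224, 218 and 225 in WT, 274, 259 and 287 in TKO, 198, 195 and 229.8 in CTL and 147, 141 and 153 in Dox, without overlap, and a difference of 0.79 ± 0.11 (adjusted p 6.58e-04). It holds a 7-base site. Adcy3, an adenylyl cyclase, had changes of 0.77 and -0.69, and Crocc2, related to a ciliary rootlet protein, of 0.71 and -0.75. Of the Adcy3 exon bases 27.8% overlap other genes. Fam160a1 had changes of 0.896 and -0.67. Serpina3g, a protease inhibitor, had changes of 0.895 and -1.32, but its class was lost without WT replicate 1, WT replicate 2, TKO replicate 2 or TKO replicate 3, and 16.0% of its 50-base stretches also occur in other genes.

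The host genes of the miR-26 genes moved unlike each other. Ctdsp2, host of Mir26a-2, had signal of 198, 192 and 228 in WT, 239, 301 and 268 in TKO, 284, 313 and 291 in CTL and 198, 246 and 196 in Dox. It was opposed, with changes of 0.39 ± 0.11 and -0.48 ± 0.11 and a difference of 0.86 ± 0.16 (adjusted p 0.00311), and it holds a 7-base site. Ctdsp1, host of Mir26b, had signal of 79.9, 75.7 and 85.5 in WT and 65.1, 70.3 and 59.4 in TKO, with changes of -0.304 ± 0.098 and -0.17 ± 0.098. Ctdspl, host of Mir26a-1, had signal of 40.5, 39.2 and 37.2 in WT and 28.2, 33.02 and 27.7 in TKO, with changes of -0.39 ± 0.11 and -0.058 ± 0.11. In both the TKO libraries lay below the WT libraries, and the sum passed (adjusted p 0.0268 and 0.0474) while the difference did not. Neither sum passed with library-size scaling (adjusted p 0.0969 for Ctdsp1 and 0.149 for Ctdspl), and that of Ctdspl did not pass without a filter on low values (0.0572). The sum of Ctdsp1 was lost without WT replicate 1, WT replicate 3, TKO replicate 3, CTL replicate 2, Dox replicate 1 or Dox replicate 3 (adjusted p up to 0.0638). The sum of Ctdspl was kept only without TKO replicate 2 or Dox replicate 2, and its adjusted p ran from 0.0615 to 0.105 without any other 1 of the libraries.

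Of 39 genes reported elsewhere as miR-26 targets, 36 were members. Their median loss change was -0.168 and their median gain change -0.174, against -0.000 and 0.011 over all genes. The difference passed in 9 of them (5 above 0 and 4 below) and the sum in 7, all below 0, against 27% and 28.3% of all genes, so neither share was above that of all genes. The list was gathered with earlier results of these data known, so it is no independent evidence of a direction. With libraries scaled by their totals the difference passed in 8 above 0 and 1 below. Stradb, Fbxl19 and Ctdsp2 were opposed and Adam17 had the larger gain change. Tab3, an adaptor of TAK1 signalling, had changes of -0.71 ± 0.11 and -0.199 ± 0.11, with the loss change the larger (adjusted p of the difference 0.0330 and of the sum 0.00183).

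Genes lower after loss and higher after gain rarely held a full site (4 of 115). Polr3g, a subunit of RNA polymerase III, had signal of 12.7, 12.4 and 12.3 in WT, 5.74, 7.16 and 8.401 in TKO, 8.55, 7.19 and 7.31 in CTL and 13.5, 10.5 and 13.8 in Dox. Neither pair of groups overlapped, and the changes of -0.75 ± 0.14 and 0.64 ± 0.14 gave a difference of -1.39 ± 0.19 (adjusted p 7.22e-04). Avpr1a, the vasopressin receptor of the calcium-coupled type, had signal of 111, 121 and 123 in WT, 70.6, 86.4 and 70.9 in TKO, 84.00, 83.5 and 78.2 in CTL and 108, 105 and 105 in Dox. Replicates of Avpr1a were tight in CTL and Dox, and its difference was -1.01 ± 0.12 (adjusted p 3.02e-04). Plagl2, a zinc finger transcription factor, had signal of 27.8, 30.1 and 30.2 in WT, 16.5, 16.3 and 19.1 in TKO, 27.5, 19.4 and 24.7 in CTL and 33.8, 29.95 and 38.3 in Dox. Plagl2 overlapped in neither comparison, with changes of -0.74 ± 0.13 and 0.499 ± 0.13.

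Lyar, a nucleolar protein, had the largest absolute difference of the genes named in this class. Its signal was 49.9, 57.2 and 44.2 in WT, 20.8, 22.03 and 25.96 in TKO, 25.7, 24.3 and 22.4 in CTL and 29.1, 31.4 and 29.7 in Dox, and the difference was -1.41 ± 0.15 (adjusted p 1.90e-04). The loss change of -1.103 was larger than the gain change of 0.31 (adjusted p of the sum 0.00330), and the class was lost without CTL replicate 3. Gxylt1, which extends O-glucose sugars on Notch, and Prkar2a, a regulatory subunit of protein kinase A, had differences of -1.200 ± 0.15 and -1.03 ± 0.22 (adjusted p 3.72e-04 and 0.00609) and kept their class in all 25 alternatives, as did Polr3g, Plagl2 and Avpr1a. Creb5, Bola3, Baz1a, Ptpn21, Rreb1 and Slain2 had differences from -1.36 to -0.97 and each lost the class under at least 1 alternative. Ptpn21, a tyrosine phosphatase, was the member of this group with a full site and had changes of -0.904 and 0.23. Dgcr8, the partner of Drosha in microRNA processing, had changes of -0.38 ± 0.079 and 0.19 ± 0.079 (adjusted p of the difference 0.00443). Its class was lost in 6 of 25 alternatives, among them those without any 1 of the CTL libraries or without Dox replicate 3.

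The microRNA machinery did not move as 1 group. Of 14 members, the difference passed in 4 above 0 and 4 below, and the sum in 3 and 2. Over all genes the difference passed in 27% and the sum in 28.3%. Ran, the GTPase that drives export of microRNA precursors, was higher in both, with signal of 139, 146 and 147 in WT, 252, 251 and 272 in TKO, 228, 221 and 220.1 in CTL and 263, 284 and 255 in Dox. Its changes were 0.84 ± 0.064 and 0.26 ± 0.064 (adjusted p of the sum 3.94e-05). Tarbp2, a cofactor of Dicer, had changes of 0.59 and 0.23 but lost its class without CTL replicate 1 or Dox replicate 2. Dicer1 had changes of -0.41 ± 0.092 and 0.18 ± 0.092, with an adjusted p of the difference of 0.00787.

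Genes higher in both held a full site in 3 of 195, and those with the largest sums included proteins of mitochondria and ribosomes. Cox14, an assembly factor of cytochrome c oxidase, had signal of 5.84, 7.07 and 8.57 in WT, 24.2, 23.3 and 18.9 in TKO, 18.2, 19.6 and 23.6 in CTL and 27.2, 30.7 and 26.4 in Dox, without overlap. Its changes were 1.51 ± 0.14 and 0.44 ± 0.14 and its sum 1.95 ± 0.202 (adjusted p 1.20e-04). Cisd1, which encodes the iron-sulfur protein mitoNEET, had signal of 8.31, 7.499 and 7.41 in WT, 20.9, 20.5 and 20.2 in TKO, 13.1, 13.03 and 17.2 in CTL and 17.3, 21.6 and 17.95 in Dox. Its TKO libraries were far above WT, while CTL replicate 3 lay just below the lowest Dox library. Uqcrq, a subunit of complex III, and Mrps24, of the mitochondrial ribosome, had sums of 1.697 ± 0.195 and 1.699 ± 0.28 (adjusted p 2.11e-04 and 0.00140). Pgp, a phosphatase that clears glycolytic side products, had changes of 1.15 and 0.67, and Metrn, a secreted protein, of 1.300 and 0.34. The ribosomal gene Rps10 also met the rule, but 51.8% of its 50-base stretches occur elsewhere in the transcriptome, its values are uncertain, and its class was lost in 6 of 25 alternatives.

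Genes lower in both held the RNAs of the mitochondrial ribosome and several full-site genes. The mitochondrial ribosomal RNA mt-Rnr1 had signal of 236, 228 and 259 in WT, 139.6, 159.9 and 141 in TKO, 137, 107 and 157 in CTL and 76.7, 55.6 and 93.3 in Dox. Its changes were of like size, -0.71 ± 0.18 and -0.83 ± 0.18. The other, mt-Rnr2, had signal of 552, 513 and 510.1 in WT, 298, 322 and 267 in TKO, 259.9, 243 and 284 in CTL and 179, 133 and 184 in Dox. Its changes were -0.83 ± 0.12 and -0.68 ± 0.12, and neither RNA overlapped in either comparison. In mt-Nd1, a subunit of complex I, signal was 8464, 8660 and 7623 in WT, 2331, 2198 and 2188 in TKO, 2531, 2176 and 2418 in CTL and 2093, 1517 and 2093 in Dox. Its loss change of -1.88 ± 0.14 was larger than the gain change of -0.33 ± 0.14, and the class of mt-Nd1 was lost without CTL replicate 1, CTL replicate 3 or Dox replicate 2.

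Bak1, a pore-forming protein of apoptosis, holds a full site and was nonetheless lower in both. Its signal was 114, 132 and 114 in WT, 60.8, 63.9 and 61.2 in TKO, 81.7, 65.8 and 75.3 in CTL and 45.7, 50.5 and 42.5 in Dox. TKO and Dox lay far below their controls, with changes of -0.94 ± 0.096 and -0.67 ± 0.096 (adjusted p of the gain change 0.0183) and a sum of -1.61 ± 0.14 (adjusted p 4.32e-05). Of its exon bases 25.7% overlap other genes. Arid5b, a DNA-binding regulator of fat cell differentiation, had signal of 466, 478 and 503 in WT, 253, 228 and 244 in TKO, 250.0, 291 and 291 in CTL and 193, 239.5 and 203 in Dox. Arid5b did not overlap in either comparison, and its sum was -1.38 ± 0.13 (adjusted p 8.04e-05). Hcfc1r1, Dynlrb1, a dynein light chain, and Clip3, a linker protein of the trans-Golgi, had sums of -1.998, -1.43 and -1.36.

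In 28 genes the gain change was the larger, and 27 of these (0.218% of genes tested) were lower in Dox. The count was 60 with the replicate block in the CTL and Dox table, 52 without Dox replicate 2, and 16 or 17 without any 1 of the WT libraries. Lipa, the lysosomal acid lipase, which splits cholesterol esters and triglycerides, had signal of 134, 124 and 136 in WT, 136, 145 and 117 in TKO, 121, 113 and 115 in CTL and 61.9, 62.9 and 49.6 in Dox. WT and TKO overlapped, and every Dox library was far below every CTL library. The changes of Lipa were 0.012 ± 0.104 and -0.997 ± 0.104 (adjusted p of the gain change 0.00661, of the difference 9.37e-04 and of the sum 8.60e-04). It holds a 7-base site and no full site.

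Zdhhc20, a palmitoyl transferase with 2 full sites, had signal of 144, 134 and 134 in WT, 167, 145 and 160.4 in TKO, 108, 93.8 and 106 in CTL and 59.99, 51.8 and 52.3 in Dox. TKO lay just above WT and Dox far below CTL, and the gain change of -0.895 ± 0.085 had the smallest adjusted p of any gain change (0.00590). Its loss change was 0.19 ± 0.085. Adam17, the protease that sheds membrane-bound cytokines, had signal of 107, 124 and 102 in CTL and 63.4, 73.8 and 58.00 in Dox, and changes of 0.14 ± 0.099 and -0.76 ± 0.099. Siae, a sialic acid esterase with 2 full sites, had changes of 0.19 and -0.85, and Bivm, with 3 sites of 7 bases, of -0.12 and -0.86. The adjusted p of the gain change of Siae was 0.0106 and that of Bivm 0.00661, and both calls were lost without Dox replicate 3 (adjusted p 0.0519). Ttc13 had changes of -0.34 and -0.81 and kept this class in 16 of 25 alternatives. Loxl2, a lysyl oxidase that cross-links matrix, had a gain change of -0.77 ± 0.18 with an adjusted p of 0.135, and of 0.00894 with the replicate block. The difference of Loxl2 was lost in 10 of the 12 fits that left out 1 library, with median centring and without a filter on low values. Dusp9, a phosphatase of MAP kinases, was the 1 gene of the 28 higher in Dox, with signal of 2.15, 1.73 and 2.64 in CTL and 4.18, 5.28 and 4.71 in Dox, and it kept this class in 6 of 25 alternatives. Adam17, Bivm, Crebrf, Lipa, Nab1, Rspry1 and Siae kept this class in all 25 alternatives.

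**Figure D5:**
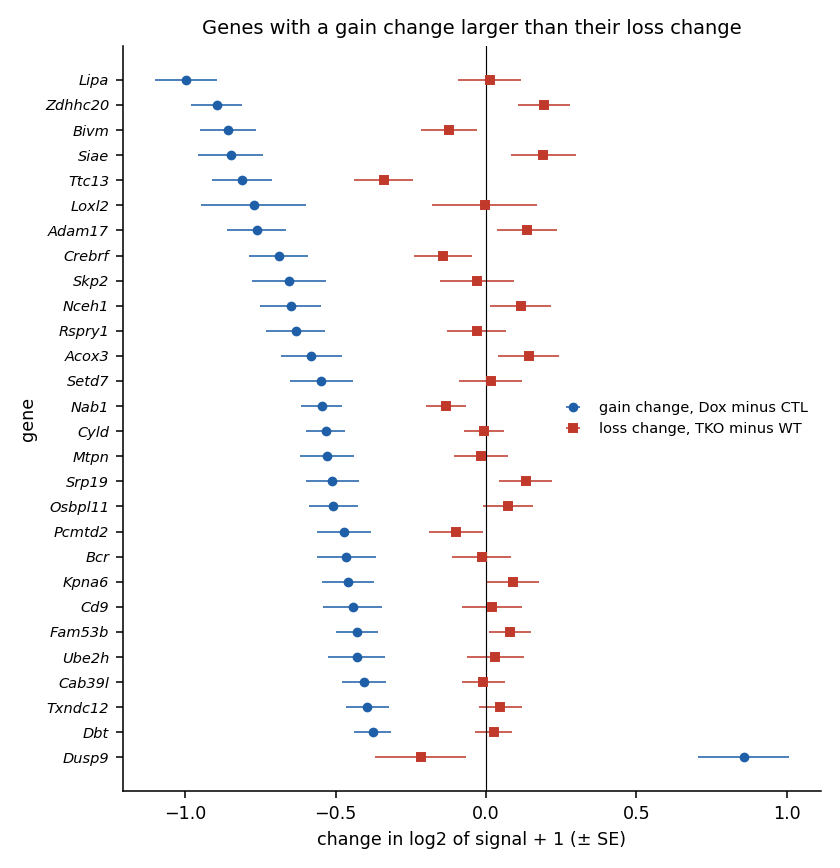
Gain change (Dox minus CTL) and loss change (TKO minus WT) of log2(signal + 1), each with its SE, for the 28 genes that passed both tests with the larger gain change. The gain changes of 27 genes lie below 0, down to -0.997 for Lipa, and the loss changes lie between -0.34 (Ttc13) and 0.19 (Zdhhc20).

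At the other end, genes with the larger loss change were led by short transcripts of the ribosome and mitochondria. Rpl39, a ribosomal protein gene, had signal of 38.6, 35.8 and 45.8 in WT, 292, 346 and 287 in TKO, 146, 145 and 154 in CTL and 156, 139 and 171 in Dox. Its TKO libraries were far above WT while CTL and Dox overlapped, and the changes were 2.92 ± 0.11 and 0.063 ± 0.11. Other genes hold 16.2% of its 50-base stretches. Tspo, the translocator protein of the outer mitochondrial membrane, had signal of 7.34, 7.98 and 11.2 in WT, 50.4, 73.98 and 48.4 in TKO, 36.4, 33.6 and 46.3 in CTL and 37.9, 40.1 and 36.9 in Dox. Tspo had a gain change of -0.004 ± 0.19 and a loss change of 2.57 ± 0.19. Atp5e, a subunit of ATP synthase, had changes of 2.53 ± 0.13 and 0.19 ± 0.13. Over 12359 genes, the correlation with transcript length was -0.33 (Spearman) for the loss change and -0.03 for the gain change, and the part of length in these values was not tested.

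The respiratory chain was split between its nuclear and mitochondrial genes, and mostly by loss. Of 75 nuclear respiratory chain genes, the median loss change was 0.726 and the median gain change 0.077. The difference passed in 49 above 0 and 2 below, and the sum in 53 and 3. Over all genes these shares were 14.2% and 12.8% for the difference and 15.3% and 13% for the sum. After removal of the length and GC trend, the median loss change was 0.402 and the difference passed in 40 above and 7 below. In 3 of these genes (Cox5a, Uqcrq and Ndufab1) both changes were up, and in 2 (Uqcrh and Atp5h) they were opposed. Cox5a, Uqcrq and Ndufab1 kept their class in 22, 21 and 24 of 25 alternatives, and all 3 lost it without CTL replicate 2. Uqcrh, a hinge subunit of complex III, had signal of 70.3, 74.4 and 74.97 in WT, 106, 111 and 93.02 in TKO, 86.2, 100.1 and 97.8 in CTL and 65.5, 80.03 and 78.9 in Dox, without overlap, but Uqcrh and Atp5h lost their class with the trend removed. Of 12 mitochondrially encoded genes, the median loss change was -1.468 and the median gain change -0.182, and the sum passed in 10, all below 0. Of these, mt-Nd1 and both ribosomal RNAs were lower in both.

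Ribosomal protein genes followed the nuclear respiratory genes. Over all genes the difference passed above 0 in 14.2% and below 0 in 12.8%. Of 80 cytosolic ribosomal protein genes, the difference passed in 57 above 0 and 7 below, with median changes of 0.776 after loss and 0.060 after gain. Among 76 mitochondrial ribosomal protein genes it passed in 29 above and 8 below, and in 18 above and 15 below with the length and GC trend removed. Of the latter genes 9 were higher in both and 2 (Mrps5 and Mrps22) were lower after loss and higher after gain, a class kept in 21 and 9 of 25 alternatives. Among 42 proteasome genes the difference passed in 20 above and 2 below, and among 61 translation factors in 12 above and 13 below. For these lists and the cytosolic ribosomal genes, counts with the length and GC trend removed are not given here.

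The loss change was called about as often among adipogenic transcription factors, which drive fat cell differentiation, as among all genes. Of 21 such factors, 2 had a higher and 7 a lower loss change at an adjusted p under 0.05, and for the gain change 0 passed (limma), with 1 higher and 0 lower at an unadjusted p under 0.05. Over all genes the loss change was called in 42.6% and the gain change in 0.372%. Cebpa, a master regulator of fat cells, had signal of 13.2, 10.9 and 11.8 in WT, 61.3, 35.95 and 26.5 in TKO, 21.6, 43.03 and 33.8 in CTL and 19.5, 44.4 and 22.6 in Dox. TKO was above WT in every library of Cebpa with a wide spread, and CTL and Dox overlapped. Its difference was 1.84 ± 0.498 (adjusted p 0.0196). Of 20 adipocyte lipid genes, Dgat1, Dgat2 and Fabp5 passed both tests, with loss changes of 0.97, 1.19 and 0.63 and gain changes of 0.015, 0.032 and -0.030. Over all genes 17.7% passed both with the larger loss change and 0.226% with the larger gain change, so the share in this list was not above that of all genes. Fabp5 passed neither test after removal of the length and GC trend (adjusted p of the difference 0.0652 and of the sum 0.106), and its sum was lost without WT replicate 2, WT replicate 3 or CTL replicate 2. The difference of Dgat2 was lost without WT replicate 1, WT replicate 2, TKO replicate 1, TKO replicate 2, CTL replicate 3 or Dox replicate 3 (adjusted p 0.0685 to 0.0722). Of 15 inhibitors of adipogenesis, Tcf7l2, a transcription factor of Wnt signalling, was lower in both, with signal of 33.3, 37.3 and 32.6 in WT, 20.3, 19.9 and 17.5 in TKO, 20.95, 23.6 and 19.8 in CTL and 17.9, 18.9 and 17.3 in Dox. Its sum was -1.04 ± 0.13 (adjusted p 3.05e-04), and its class was lost without CTL replicate 2, Dox replicate 1 or Dox replicate 3. Over all genes 1.37% were lower in both. Wisp2, a secreted protein of the CCN family, had a difference of 1.42 ± 0.32 (adjusted p 0.00814).

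Several stress, inflammatory and metabolic lists were examined. Over all genes the difference passed in 27% and the sum in 28.3%. Without the replicate block, the counts on the ATF4, interferon and cholesterol genes below are near or under these shares. Of 35 genes of the ATF4 stress response, the sum passed in 7 above 0 and 1 below, in 10 and 4 with the replicate block, and in 3 and 1 after removal of the length and GC trend. Psph, the last enzyme of serine synthesis, had signal of 23.7, 24.6 and 24.9 in WT, 35.2, 33.6 and 38.7 in TKO, 44.2, 32.9 and 35.1 in CTL and 56.4, 44.5 and 53.7 in Dox. Its changes were 0.54 ± 0.12 and 0.46 ± 0.12 (adjusted p of the sum 0.00159), and CTL replicate 1 lay just below the lowest Dox library. Of 22 inflammatory genes, Cxcl5, a neutrophil chemokine, was opposed, with signal of 19.6, 12.7 and 6.63 in WT, 70.1, 24.4 and 27.95 in TKO, 6.61, 13.6 and 15.1 in CTL and 3.17, 6.88 and 2.09 in Dox. CTL and Dox overlapped for Cxcl5, and its class was lost in 6 of the 12 fits that left out 1 library. Of 22 interferon response genes, whose median gain change was -0.406, the difference passed in 4 above 0 and 1 below and the sum in 1 and 6. With libraries scaled by their totals the sum passed in 2 and 3. Of 20 p53 targets, Perp, a membrane protein of desmosomes and of p53-driven apoptosis, was opposed, with signal of 3.37, 6.35 and 6.48 in WT, 12.9, 15.8 and 17.1 in TKO, 4.13, 3.22 and 7.78 in CTL and 2.01, 2.28 and 2.13 in Dox (difference 2.25 ± 0.38, adjusted p 0.00195). Most CTL and Dox values of Perp were under 5, the mean asked of other named genes, so they were near the floor. The count of p53 targets past either test is not given here. Of 25 cholesterol synthesis genes, Acat2 passed the difference and 0 passed the sum (limma), while with the replicate block 5 passed the difference above 0 and 3 below and 6 passed the sum below 0. Acat2, of acetyl-CoA metabolism, had changes of 0.43 and -0.78 (adjusted p 0.0118), and it holds a full site.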

How the data were processed

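RNA was measured in 12 libraries, and 2 tables of 6 libraries each were deposited. Per the submitters' processing notes, TopHat2 2.0.12, featureCounts 1.4.6, edgeR 3.8.6 and StringTie 1.2.2 were used with GRCm38 (mm10), and whether counting used strand is not given in the sources used here. Libraries were made with a stranded kit and sequenced with 75-base single reads, per the labels. The deposited signal values are read counts scaled by the authors to a common library size with 1 factor per library: whole reads were recovered for 100.0% of values within 0.1. Each table lists only genes above 0 in all its libraries. The log2 fold changes, the score and each p-value deposited by the authors were not used, except counts of their false discovery rate.

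Members and gene lists were chosen with earlier results of these data known. log2(signal + 1) was fitted with 1 mean per group (limma 3.58.1, R 4.3.3, trended prior, 8 residual degrees of freedom), and p-values were adjusted by Benjamini-Hochberg over the 12373 genes, with a threshold of 0.05. Named genes were those with the largest difference or sum in each class among genes with a mean of at least 5 and groups that do not overlap, up to 12, 12, 8, 8, 5 and 5 per class, 12 opposed genes with a full site, the host genes, and those with the smallest p in each list. Other genes, named because they make up a small count or class, were chosen after their values were seen. Some genes that met the rule are not reported here. Alternatives were other pseudocounts, filters, scalings, edgeR 4.0.16 and DESeq2 1.42.0 on recovered reads, a weight per table, replicate blocks, removal of a trend on transcript length and GC content, and each library left out. A pairing of the CTL and Dox libraries by replicate number was inferred from the values, and the main fit did not use it. Same-numbered deviations from the group means correlated at 0.862, 0.586 and 0.725. The column headers of Dox replicates 2 and 3 carry the same sequencing suffix, so these were assigned by replicate number. The scripts were tested on simulated data.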

Additional observations from a re-analysis of the deposited data

How the results depend on the processing

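Of 191 tests of named genes, 0 changed sign under any of the 25 alternatives, and those no longer past the threshold numbered 0 to 16 under the other settings and 6 to 25 when 1 library was left out. The replicate block in the CTL and Dox table changed the counts to 211 genes lower after loss and higher after gain, 309 higher in both, 260 lower in both, 104 with a gain change and 60 with the larger gain change, and ended 0 of the 191 calls. In both tables it gave 201 genes lower after loss and higher after gain, 276 lower in both and 50 with the larger gain change. The WT and TKO numbers share only a number (correlations 0.453, -0.134 and -0.288). The block in both tables with the length and GC trend removed gave 346 and 353 opposed genes, 412 and 330 same-direction genes, 120 gain changes and 74 with the larger gain change. The trend alone removed gave 197 genes lower after loss and higher after gain and 93 gain changes. Library-size scaling gave 56 genes lower after loss and higher after gain. Gain changes numbered 223 with DESeq2 and 18 with 1 weight per table. edgeR on recovered reads called 1946 differences above 0 and 1413 below. The causes were not tested. With each library left out in turn, the difference passed in 2316 to 3922 genes and the sum in 2618 to 3412. Opposed genes numbered 116 to 258 and 71 to 232, same-direction genes 125 to 231 and 133 to 226, gain changes 2 to 77, loss changes 4005 to 5588 and genes with the larger gain change 16 to 52. The analyses of loss, gain and larger-gain counts under the alternatives were chosen after seeing the data. Depth was lower in CTL and Dox than in WT and TKO.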

Other observations

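Of 32 positional identity genes, mostly Hox genes, the difference passed an adjusted p of 0.05 (limma) in 1 above 0 and 10 below, against 14.2% and 12.8% of all genes, with a median loss change of -0.409 and a median gain change of 0.057. Hoxc6, Hoxa7 and Meis2, homeobox transcription factors, had loss changes of -0.74 ± 0.11, -0.66 ± 0.11 and -0.93 ± 0.17 and gain changes of -0.036, 0.16 and 0.17. Hoxd8, with a full miR-26 site, went the other way, with changes of 0.27 ± 0.11 and -0.57 ± 0.11, and lost its class in 7 of 25 alternatives. Of 21 chromatin regulators the difference passed in 9, all below 0, and in the other 12 it did not pass. Crebbp, a histone acetyltransferase, had signal of 74.1, 78.9 and 75.7 in WT, 40.3, 40.2 and 44.9 in TKO, 57.3, 59.5 and 56.3 in CTL and 57.6, 60.1 and 58.04 in Dox, with TKO far below WT and CTL and Dox overlapping. Kdm6b, a histone demethylase, had changes of -0.77 ± 0.13 and 0.201 ± 0.13. For the positional identity genes and the chromatin regulators, counts with the length and GC trend removed are not given here. The correlation of the loss change with transcript length over all genes was -0.33 (Spearman), and its part in these counts was not tested.

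Over all genes the difference passed in 27%, and the counts on the Hedgehog, immediate-early and lysosome genes and the Fbxl19 relatives that follow are near that share. Of 10 Hedgehog genes the difference passed in 3, all below 0, and in 1 with libraries scaled by their totals. Ptch1, the Hedgehog receptor, had signal of 16.7, 18.5 and 19.2 in WT, 13.5, 14.5 and 17.02 in TKO, 19.1, 20.8 and 13.8 in CTL and 34.98, 25.8 and 26.6 in Dox. All Dox libraries of Ptch1 were above CTL and its difference was -0.94 ± 0.22 (adjusted p 0.0111). Of 22 immediate-early genes the difference passed in 1 above 0 and 6 below, and Myc, a transcription factor of growth, had changes of -1.295 ± 0.24 and 0.26 ± 0.24. Of 28 lysosome genes the difference passed in 6 above 0 and 1 below. Glb1, the lysosomal beta-galactosidase, had signal of 95.6, 89.5 and 94.8 in CTL and 49.1, 68.1 and 40.9 in Dox, with all Dox libraries lower, and changes of 0.26 ± 0.16 and -0.84 ± 0.16 (adjusted p of the difference 0.00471). Of 23 hypoxia and glycolysis genes the difference passed in 5 above 0, of 32 G1/S and replication genes in 2 above and 3 below, of 28 G2/M and mitosis genes in 1 below, of 24 Wnt pathway genes in 2 below, of 21 TGF-beta response genes in 1 above and 1 below, and of 43 collagen and matrix genes in 1 above and 2 below. With the replicate block the matrix counts were 6 and 3 and the G2/M counts 4 and 4. Of the 10 Fbxl19 ligase relatives the difference passed in 2 above 0, Fbxl19 and Rbx1, and in 1 below, Kdm2a.

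In the authors' deposited tables, 4775 of all listed genes had a false discovery rate under 0.05 for TKO against WT, 10 for Dox against CTL, and 4 in both.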
